A study of Mus musculus with 8 samples.

Results

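Hox genes encode the homeobox transcription factors that record position along the body axis, and they were examined here in a follicle of the face. The members are all genes named Hoxa, Hoxb, Hoxc or Hoxd plus a number, antisense names left out, that the accessions on the array match. These are 39 genes on 44 probes, out of 37018 genes and unnamed transcripts on 55681 probes. Of the Hox genes, 34 have 1 probe and 5 have several. Whisker follicle RNA came from female ApcMin/+ mice, which carry a truncating germline allele of Apc in all cells. The E7386 group of 4 samples had 30 mg/kg orally, 2 times daily, over 4 cycles with 5 days of dosing and 2 days of rest, beginning at 8 weeks of age, and follicles were taken 6 h after the last dose. The control group of 4 samples had vehicle and the same genotype. E7386 is an orally given small molecule described as a modulator of the interaction between beta-catenin and CBP. Each sample filled 1 array, and the labels do not say that the 4 samples of a group are separate mice, so the tests speak only for the spread among these samples, which may be technical.

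In mammals the Hox genes lie in 4 clusters, HoxA to HoxD, and genes with the same number in different clusters are paralogs. Low numbers are used toward the hindbrain, high numbers toward the tail and the ends of the limbs. The mesenchyme of the upper face comes from neural crest that is largely free of Hox expression, while trunk and limb skin keeps a Hox pattern into adult life. Hoxc13 is the known exception in hair: it is expressed in the matrix and forming shaft of follicles over the whole body, and mice or humans without it have defective hair and nails.

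Of the 39 Hox genes, 16 passed the detection filter, which asks that the gene's brightest probe be well above background, by the mark of the scanner program, on at least 3 of the 4 arrays of a group. Over all genes with a symbol, 77.2% passed. On all 8 arrays 11 Hox genes were well above background, where 73.0% of genes with a symbol were. A further 10 were so on some arrays without passing, and 13 were on none. Each array showed between 15 and 21 of the Hox genes.

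**Figure D1:**
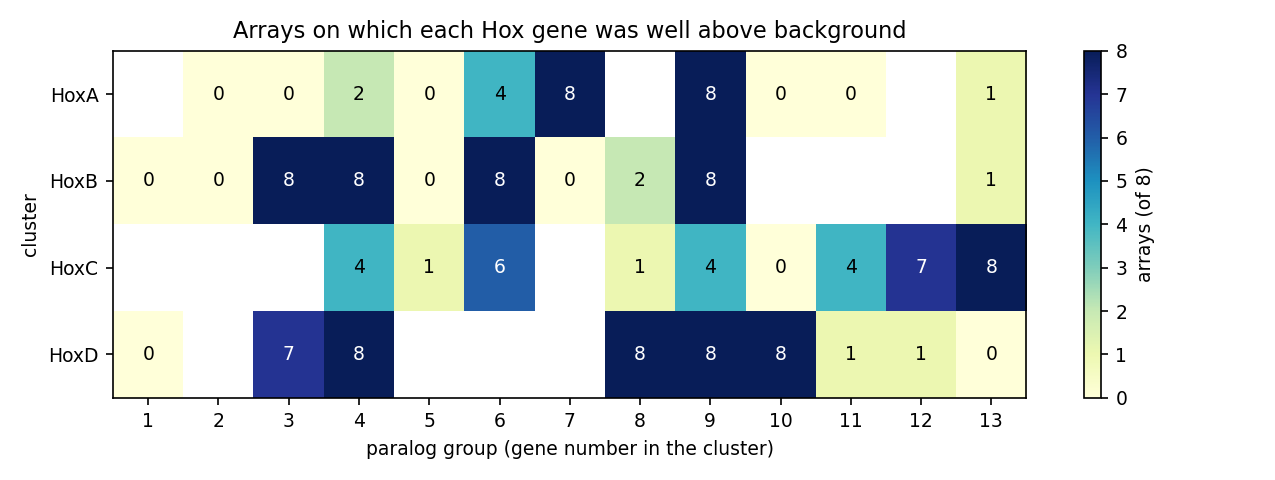
Number of the 8 arrays on which the brightest probe of each Hox gene was well above background, by cluster (rows) and paralog group (columns); white squares have no gene in the mouse or are not reported here. Hoxc13 stands at 8 arrays, and the HoxD row is at 7 or 8 for Hoxd3, Hoxd4, Hoxd8, Hoxd9 and Hoxd10 and at 0 or 1 for its other members.

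Hoxc13 was strongly measured in every sample. Its value, the log2 processed signal minus the array's 75th percentile, was 3.33, 3.22, 2.56 and 2.79 on vehicle replicates 1 to 4 and 3.15, 3.03, 2.83 and 2.97 on E7386 replicates 1 to 4. This is at least 5.90 times the 75th percentile of the same array, with processed signals of 3580 to 6590. The E7386 values lay inside the range of the vehicle values. The other 15 Hox genes that passed were below the 75th percentile on every array, with values from -6.23 to -1.31. Probes differ in how brightly they label, so these values place each probe on its array and do not rank the genes by RNA amount.

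The remaining HoxC members were weak. Hoxc12, the neighbour of Hoxc13 in the cluster, was well above background on 7 arrays with values from -5.04 to -4.05. Hoxc6, a gene of the thoracic region in embryos, was so on 6 arrays (-5.87 to -4.34) and Hoxc4 on 4. Hoxc9 was so on vehicle replicates 1, 2 and E7386 replicates 1, 4 (-7.81 to -4.48 over all arrays), and Hoxc11, a gene also active in hair and hindlimb, on vehicle replicates 1, 2 and E7386 replicates 1, 2 (-6.99 to -4.36). Both fell short of the filter. Hoxc5 was so on vehicle replicate 3 (-5.43) and Hoxc8 on vehicle replicate 1 (-4.96), and Hoxc10 on none.

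HoxD had the most members past the filter, 5 of 9, and they are Hoxd3, Hoxd4, Hoxd8, Hoxd9 and Hoxd10. Hoxd8 was at -2.26, -1.45, -1.31 and -1.37 with vehicle and -2.24, -2.02, -1.50 and -1.59 with E7386. Vehicle replicate 1 and E7386 replicate 1 were the lowest, and the groups overlapped. Hoxd9 was at -3.77, -2.87, -2.71 and -2.53 with vehicle and -3.49, -3.32, -2.89 and -2.81 with E7386, with the same 2 arrays lowest. Hoxd4 ranged from -3.48 to -2.44 and Hoxd10, which acts in limb and spinal cord patterning, from -4.94 to -4.47. Hoxd11 was well above background on E7386 replicate 2 (-4.45) and Hoxd12 on vehicle replicate 1 (-5.19), and on no other array. The other probe of Hoxd11 was so on no array and was at -7.48 on E7386 replicate 2. Hoxd1 and Hoxd13, a gene of digit formation, were so on none.

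The promoters of the HoxD genes that were on in all samples or in none are shown because they put measured and dim neighbours of a cluster side by side. That table (GRCm38.p6) holds 22 of the 39 Hox genes. The 250 bases before the annotated start are printed 5′ to 3′ on the plus strand, with CG dinucleotides in capitals, and lie at chr2:74721728-74721977 (Hoxd4), chr2:74704365-74704614 (Hoxd8), chr2:74697513-74697762 (Hoxd9), chr2:74691641-74691890 (Hoxd10), chr2:74762730-74762979 (Hoxd1) and chr2:74667975-74668224 (Hoxd13). The first 4 were on in all 8 samples and the last 2 in none.
Hoxd4: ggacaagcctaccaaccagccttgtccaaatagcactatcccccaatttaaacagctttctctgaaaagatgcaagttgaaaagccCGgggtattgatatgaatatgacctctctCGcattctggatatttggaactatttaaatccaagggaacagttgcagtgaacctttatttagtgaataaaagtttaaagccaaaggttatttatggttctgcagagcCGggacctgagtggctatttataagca
Hoxd8: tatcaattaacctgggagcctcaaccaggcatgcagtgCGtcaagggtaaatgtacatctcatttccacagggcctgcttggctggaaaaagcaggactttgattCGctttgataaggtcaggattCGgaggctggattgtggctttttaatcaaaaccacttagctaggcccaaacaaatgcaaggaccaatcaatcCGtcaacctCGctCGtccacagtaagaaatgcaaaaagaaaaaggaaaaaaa
Hoxd9: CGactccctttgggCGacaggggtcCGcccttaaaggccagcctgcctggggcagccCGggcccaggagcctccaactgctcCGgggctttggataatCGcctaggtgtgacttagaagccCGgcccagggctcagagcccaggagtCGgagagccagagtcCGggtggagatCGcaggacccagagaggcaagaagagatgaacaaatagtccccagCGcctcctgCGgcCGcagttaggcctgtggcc
Hoxd10: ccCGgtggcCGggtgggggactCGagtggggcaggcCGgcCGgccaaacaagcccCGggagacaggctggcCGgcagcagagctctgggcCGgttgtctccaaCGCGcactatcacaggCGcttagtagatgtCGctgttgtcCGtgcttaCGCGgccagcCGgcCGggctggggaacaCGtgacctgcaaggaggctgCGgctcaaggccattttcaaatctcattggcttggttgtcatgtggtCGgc
Hoxd1: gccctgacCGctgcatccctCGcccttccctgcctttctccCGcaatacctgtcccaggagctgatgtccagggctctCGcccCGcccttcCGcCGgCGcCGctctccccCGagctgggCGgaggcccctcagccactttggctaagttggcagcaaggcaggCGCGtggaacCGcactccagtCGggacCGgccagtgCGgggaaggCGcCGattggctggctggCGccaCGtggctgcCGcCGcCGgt
Hoxd13: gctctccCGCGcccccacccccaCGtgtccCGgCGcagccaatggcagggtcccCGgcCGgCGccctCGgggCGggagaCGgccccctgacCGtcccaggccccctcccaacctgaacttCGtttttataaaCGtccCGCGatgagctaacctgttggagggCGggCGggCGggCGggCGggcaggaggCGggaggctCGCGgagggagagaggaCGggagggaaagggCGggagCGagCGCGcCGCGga

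Hoxd4 and Hoxd8 hold 3 and 6 CG dinucleotides in this window, Hoxd9 holds 13 and Hoxd10 holds 20. Hoxd1 holds 24 and Hoxd13 holds 31. Among the 20 Hox genes with a single promoter in the table, the 7 genes on in all samples had 3 to 20 (median 7). The 10 past the detection filter, these 7 among them, had 3 to 24 (median 10). The 7 on in none had 6 to 31 (median 18), so the ranges overlap. Among all 32851 promoters of the table, at least 1 CG was present in 92.1%, the median was 6, and 17.9% had at least 20. The reverse complement of CG is CG, so both strands give the same count. These counts describe the sequences, and no link to expression was tested.

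HoxB had 4 members on all 8 arrays, which are Hoxb3, Hoxb4, Hoxb6 and Hoxb9. Hoxb6 had the widest range of the 16 genes past the filter, at -4.06, -3.69, -3.01 and -1.87 with vehicle and -4.38, -3.89, -2.87 and -2.12 with E7386. Replicate 1 was lowest and replicate 4 highest in each group, and the whole range was 2.51 log2 units. Some members that did not pass ranged wider, up to 3.53 for Hoxd11. Hoxb4, also known for expanding blood stem cells, lay between -3.84 and -3.19 on 7 arrays and at -5.09 on E7386 replicate 4. Hoxb3 was steady at -4.70 to -4.16, but its other probe was well above background on 6 arrays and ran from -7.55 to -4.47. Hoxb9 ranged from -5.03 to -3.83. Hoxb8 was well above background on vehicle replicate 4 (-4.92) and E7386 replicate 4 (-5.15), the arrays where Hoxb6, its neighbour but one, was highest. Hoxb13, a gene of prostate and tail, was so on E7386 replicate 2 (-4.60). Hoxb1, Hoxb2, Hoxb5 and Hoxb7 were so on none.

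HoxA had 2 members on all arrays, the neighbours Hoxa7 and Hoxa9. Hoxa7 lay between -4.57 and -3.17 and Hoxa9, a partner of Meis1 in blood progenitors, between -4.97 and -4.27, with 6 arrays for the other probe of Hoxa9. Hoxa6 was well above background on 3 vehicle arrays and 1 E7386 array (-6.03 to -4.20). Hoxa4 was so on vehicle replicates 1 (-5.26) and 2 (-5.02), while its -5.06 on E7386 replicate 3 was not so marked. Hoxa13, a limb and genital gene, was well above background on vehicle replicate 1 (-5.32). The other probe of Hoxa13 was so on no array and was at -7.00 on vehicle replicate 1. Hoxa2, Hoxa3, Hoxa5, Hoxa10 and Hoxa11 were so on none. Hoxa2 is the gene that sets the identity of the second branchial arch. The 13 Hox genes on no array had processed signals from 2.27 upward, all below 11.3, the smallest signal that counted as well above background on any array. They are dim here, and their absence from the tissue is not shown.

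**Figure D2:**
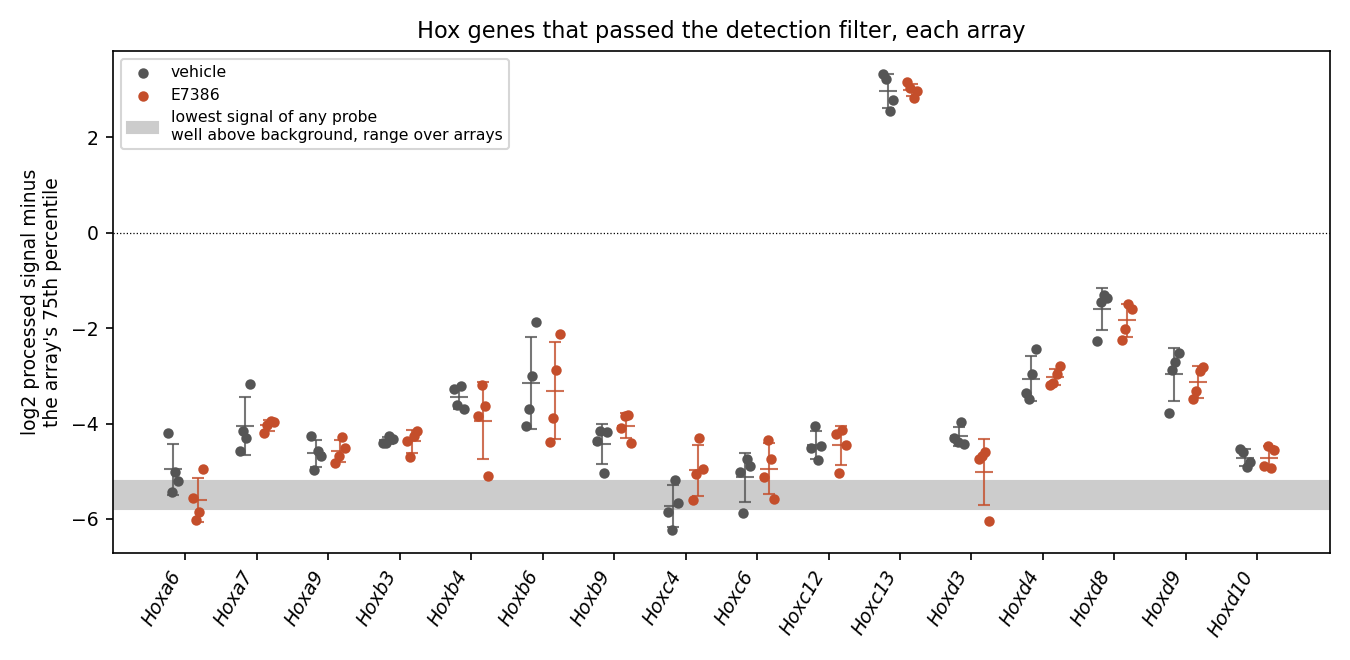
Value of each Hox gene past the detection filter on every array, as log2 processed signal minus the array's 75th percentile (dotted line at 0); points are arrays, bars are mean ± SD of 4. The grey band spans the dimmest value that still counted as well above background, -5.80 to -5.50 on vehicle and -5.33 to -5.21 on E7386 arrays. Hoxc13 alone lies above 0 and Hoxa6, Hoxc4 and Hoxc6 lie at or near the band.

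E7386 against vehicle was the comparison the study was designed for. No Hox gene was called: 0 of the 16 passed at an adjusted p under 0.05 (limma, Benjamini-Hochberg over all 25353 genes tested, 4 against 4 arrays), where 1.13% of all genes tested were called. At an unadjusted p under 0.05 there were 2 of 16, Hoxc4 and Hoxd3, beside 15.0% of all genes tested. The groups of arrays did not overlap for 1 of 16, Hoxd3, beside 10.4% of all. Of the 16, 8 were higher and 8 lower with E7386, the median log2 change was -0.005 and that of all genes tested 0.017. The number of genes called over the whole array, 287, was lower by more than 1.5 times without certain single arrays. It was 156 without vehicle replicate 1, 126 without vehicle replicate 2 and 123 without vehicle replicate 3. Without E7386 replicate 2, 3 or 4 it was 155, 86 and 104. Each time 0 Hox genes were called, of 15 or 16 tested. Hoxc4 was not tested without E7386 replicate 2, 3 or 4, nor Hoxa6 without vehicle replicate 1 or 3.

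Hoxc13 was at 2.98 ± 0.36 (SD, n = 4) with vehicle and 2.99 ± 0.13 with E7386. Its log2 change was 0.02 (SE 0.18, 95% interval -0.39 to 0.42, limma adjusted p = 0.978), so the interval of its fold change runs from 0.766 to 1.34. Hoxd10 (0.00, SE 0.14), Hoxb3 (-0.02, SE 0.12) and Hoxa9 (0.05, SE 0.17) had intervals of similar or smaller width. Hoxb6 had the widest, from -1.55 to 1.24 (SE 0.61). The median standard error of the 16 was 0.26, beside 0.13 for all genes tested, so a change of a typical Hox gene had to be larger to be seen.

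Hoxd3, a paralog of group 3 that takes part in forming the upper vertebrae, was at -4.30, -4.39, -3.97 and -4.42 with vehicle and -4.75, -4.67, -4.59 and -6.05 with E7386. The E7386 values were all lower, and replicate 4 was not well above background. The log2 change was -0.75 (SE 0.32, adjusted p = 0.319), and -0.40 without E7386 replicate 4 (adjusted p = 0.29). With normexp background correction it was -0.01.

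Hoxc4 was at -5.85, -6.23, -5.18 and -5.66 with vehicle and -5.61, -5.06, -4.30 and -4.95 with E7386. It was well above background on 1 vehicle array and 3 E7386 arrays, and the groups overlapped. The log2 change was 0.75 (SE 0.30, adjusted p = 0.297). As it passed the filter through the E7386 arrays alone, its direction is partly fixed by the filter, and the same holds for Hoxa6 (-0.64, SE 0.31, adjusted p = 0.389) through the vehicle arrays.

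The other members also missed the threshold. Log2 changes were -0.49 for Hoxb4 (SE 0.37), 0.39 for Hoxb9 (SE 0.22), -0.24 for Hoxd8 (SE 0.25), 0.18 for Hoxc6 (SE 0.32), -0.16 for Hoxb6 and -0.16 for Hoxd9 (SE 0.28). Those of Hoxa7 (0.01), Hoxc12 (-0.01) and Hoxd4 (0.04) were nearer to 0, with standard errors of 0.27, 0.22 and 0.22. Of the genes that did not pass, 7 were well above background in 1 group only, on 1 or 2 arrays. These are Hoxa4, Hoxa13, Hoxb13, Hoxc5, Hoxc8, Hoxd11 and Hoxd12, and for none of them did the mean of the brighter group exceed the bound for the dimmer one, so no fold is given.

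**Figure D3:**
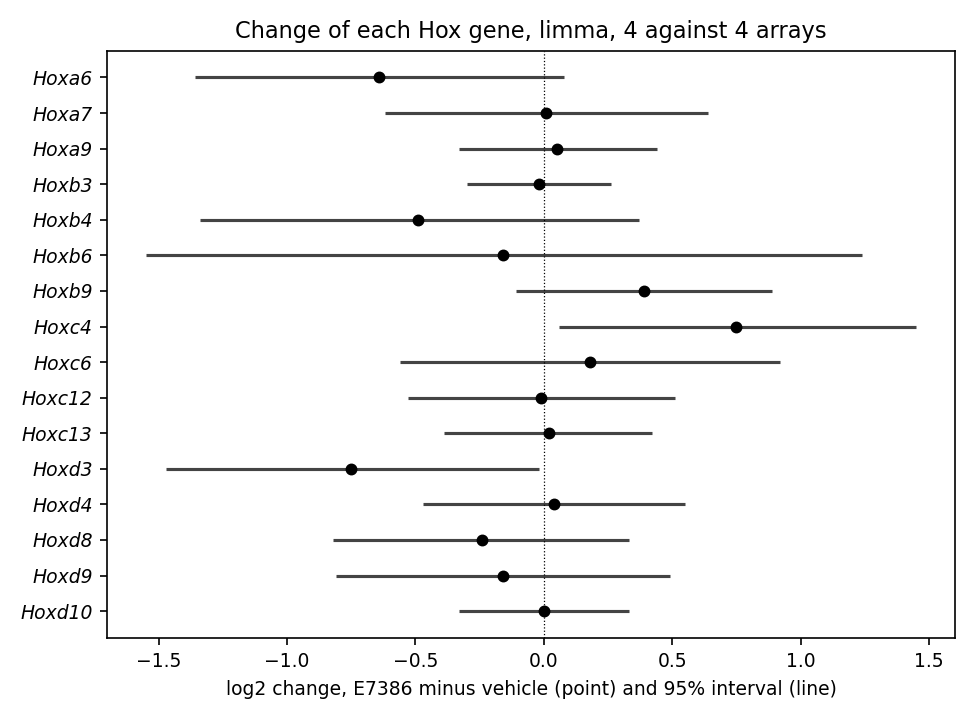
Log2 change of each Hox gene past the detection filter, E7386 minus vehicle (point), with its 95% interval from limma (line). The points run from -0.75 (Hoxd3) to 0.75 (Hoxc4), the interval of Hoxc13 from -0.39 to 0.42, and no gene passed after adjustment over all genes.

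The samples differed in their skeletal muscle markers, and 3 Hox genes were lowest on the arrays where these were lowest. All 8 markers of skeletal muscle on the list were well above background on all arrays, and their mean was 1.36, 3.85, 4.37 and 4.60 on the vehicle arrays and 1.71, 2.47, 4.61 and 4.70 on the E7386 arrays. Thus 3 arrays were low, vehicle replicate 1 and E7386 replicates 1 and 2. Hoxb6, Hoxd8 and Hoxd9 each had their lowest 3 values on these 3 arrays, 3 of 16 Hox genes beside 4.98% of all genes tested without missing values. No Hox gene had its highest 3 values there, and the share of all genes that did was not computed. In bulk tissue fewer cells of a type and less RNA per cell cannot be told apart, and the part of muscle in the Hox values was not tested. With the muscle mean as a covariate, an alternative chosen after seeing the data, the changes were -0.06 for Hoxb6, -0.20 for Hoxd8 and -0.11 for Hoxd9, and 0 Hox genes were called.

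Hoxc13 is read here beside the hair shaft markers. The mean of the 8 measured hair shaft markers, all well above background on every array, was 7.67, 7.88, 6.55 and 6.83 with vehicle and 7.63, 7.38, 7.37 and 8.01 with E7386. The lowest 2 values of that list were on vehicle replicates 3 and 4, and so were the lowest 2 of Hoxc13, which makes 1 of 16 Hox genes beside 13.8% of all genes tested, so the Hox share was not above the background. On E7386 replicate 4 the list was at its highest, while Hoxc13 was at 2.97, inside its range.

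**Figure D4:**
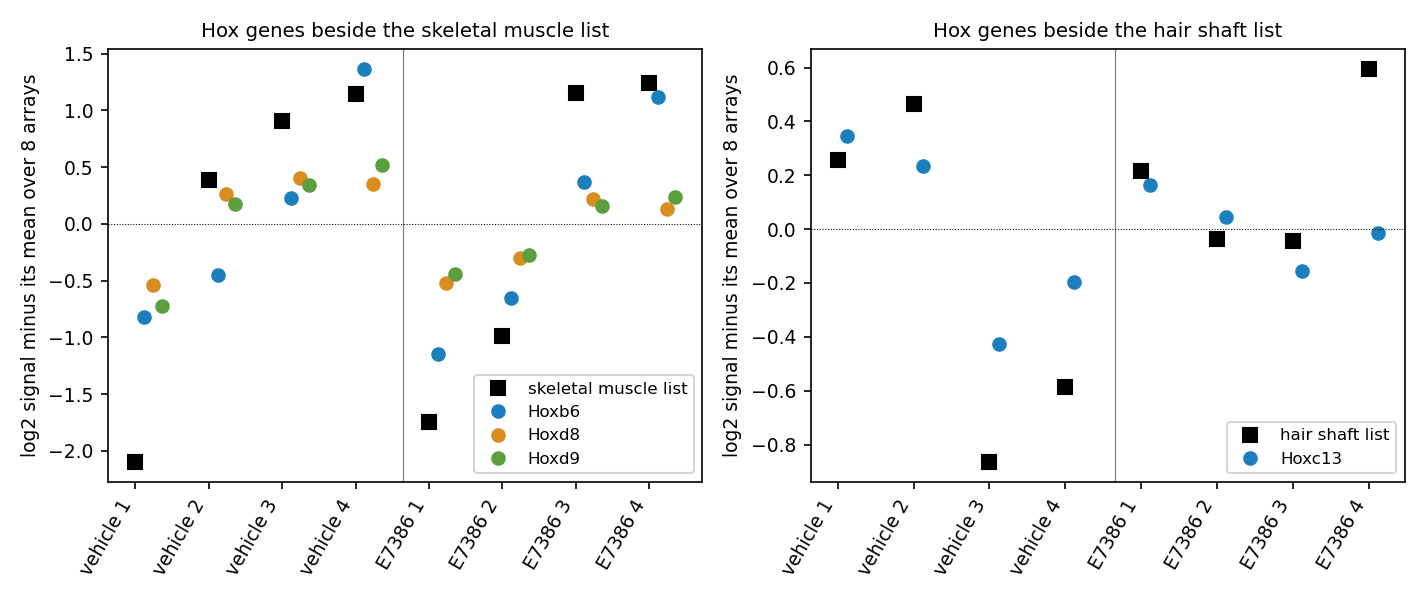
Deviation of each array from the mean over 8 arrays, in log2 units, for the skeletal muscle list (squares) with Hoxb6, Hoxd8 and Hoxd9 (circles) on the left and for the hair shaft list with Hoxc13 on the right; the vertical line separates vehicle from E7386. The 3 arrays with the lowest muscle mean hold the 3 lowest values of each of the 3 Hox genes, and vehicle replicates 3 and 4 are lowest for both the shaft list and Hoxc13.

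Most of the listed factors that Hox proteins work with were measured on every array. Hox proteins bind DNA together with TALE homeodomain proteins of the Pbx, Meis and Pknox families. Of 9 such genes 8 were well above background on all arrays, beside 73.0% of all genes with a symbol. In either direction 0 were called, and the median log2 change was -0.02. Among them the changes were -0.26 for Pbx2 (SE 0.09, adjusted p = 0.247), 0.06 for Pbx3, 0.02 for Meis1, 0.01 for Meis2, -0.18 for Meis3, -0.20 for Pknox1 (SE 0.08, adjusted p = 0.289) and -0.06 for Pknox2. Pbx4 was well above background on 1 array.

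Genes tied to Hoxc13 in the follicle also stayed short of the threshold, 0 of 5 called with a median of 0.30. They are Foxn1, the factor lost in nude mice, at 0.20 (SE 0.26), Foxq1, a factor of the hair medulla, at 0.39 (SE 0.16, adjusted p = 0.29), the hair keratins Krt32 at 0.38 (SE 0.44) and Krt35 at 0.13 (SE 0.25), and Dsg4, a desmosomal cadherin of the shaft, at 0.30 (SE 0.26). Their mean was lowest on vehicle replicates 3 and 4, at 2.23 and 2.34, beside 2.75 to 3.36 on the other arrays. Krt35 also counts in the hair shaft list.

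Of the Polycomb and trithorax genes, which keep Hox clusters silent or active, 23 of 24 were on the array and passed the filter. Of these 1 was called, beside 1.13% of all genes tested. It was Ezh1, a histone H3 lysine methyltransferase of Polycomb, higher by 0.42 with E7386 (SE 0.07, limma adjusted p = 0.0399). It went from 4.09 ± 0.07 (SD, n = 4) to 4.51 ± 0.06, and its call was not followed through the alternative fits. No member was called lower, and the median log2 change was -0.03. Its paralog Ezh2 was at 0.06 (SE 0.12), and the next by p were Bmi1 (-0.20, adjusted p = 0.328), Cbx8 (-0.21, adjusted p = 0.33) and the demethylase Kdm6a (0.17, adjusted p = 0.375).

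Of the 24 homeobox and patterning genes of the face 20 passed the filter, beside 77.2% of all genes with a symbol. On all 8 arrays 15 were well above background, beside 73.0%, and Alx1, Barx1 and Lhx8 were on no array. Prrx2, a factor of mesenchyme, fell from 3.19 ± 0.19 (SD, n = 4) to 1.95 ± 0.06, a log2 change of -1.24 (limma adjusted p = 0.00176, SE 0.10). In this list 0 were called higher, and over all genes tested 1.13% were called in either direction. The change of its paralog Prrx1 was -0.34 (adjusted p = 0.222) and that of Dlx1, a jaw patterning gene, 0.44 (adjusted p = 0.299), and neither passed. The mean of the 7 dermal papilla and sheath markers was -0.63 to -0.50 on the vehicle arrays. On E7386 replicates 1 to 4 it was -0.50, -0.96, -0.89 and -1.13, so replicate 1 was within the vehicle range. The median log2 change of these markers was -0.26 and 0 were called. Corin was at -1.35 (adjusted p = 0.348) and Hhip at -0.74 (adjusted p = 0.319). Sox2 (-0.20), Alpl (-0.29) and Vcan (-0.26) were also lower, while Lepr (0.23) and Prom1 (0.47, adjusted p = 0.067) were higher. The part of these markers in the Prrx2 value was not tested. Of the other transcripts in or beside the Hox clusters 13 were on the array, 11 passed the filter and 0 of these were called. The smallest p belonged to Calcoco1 (0.40, adjusted p = 0.112), Cbx5 (-0.27, adjusted p = 0.234), Mtx2 (-0.16, adjusted p = 0.397) and Ttll6 (-0.21, adjusted p = 0.409). Hoxa11os, antisense to Hoxa11, was on in all 8 arrays although Hoxa11 was on in none, and Hoxd3os1 was at -0.65 (SE 0.52). Evx1 and Evx2, homeobox genes at the ends of HoxA and HoxD, were on in none.

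Markers of follicle layers were measured on every array. All measured markers of inner root sheath (8), outer root sheath (7) and melanocytes (5) were well above background on all arrays. So were 6 of 7 dermal papilla, 5 of 6 leukocyte, 3 of 4 red blood cell and 4 of 4 nerve markers. Over all genes with a symbol 73.0% were, so these counts alone do not identify the tissue. In these lists 0 markers passed at an adjusted p under 0.05. Of the spots for mouse transcripts, 62.2% to 64.7% were well above background with vehicle and 61.5% to 61.9% with E7386, without overlap. The dimmest value so marked was higher with E7386 (-5.33 to -5.21) than with vehicle (-5.80 to -5.50). Of the Hox genes on no array, Hoxa3, Hoxa10 and Hoxb1 had all E7386 values above all vehicle values. The means of Hoxa5, Hoxb2 and Hoxb5 were lower with E7386. The part of these differences in changes of dim genes such as Hoxc4, or in marks seen in 1 group only, was not tested. Precision rests on the 4 arrays a group and on the spread among them. All arrays lie on 1 slide, with vehicle in row 1 and E7386 in row 2, so row and treatment cannot be told apart.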

How the data were processed

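Cy3-labelled cRNA from 50 ng of total RNA per sample was hybridised to 1-colour Agilent arrays. The scanner files hold intensities that the authors made with Agilent Feature Extraction (release 11.5.1.1, as the file headers give it); the processed signal is background-subtracted. The authors also deposited a table of log2 values of the same arrays, whose columns share the same sorted values (median 5.31), and it served as an alternative. Marks such as well above background are 0 or 1 per spot, per the file headers.

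Spots marked as non-uniform (2 to 14 per array) were set to missing, and none of these was a Hox spot. Log2 processed signals were centred on each array's 75th percentile, spots of a probe were averaged, and the probe with the highest mean over 8 arrays stood for its gene. Accessions named 27509 probes through RefSeq's GRCm38.p6 table. Genes past the detection filter, 25353, went into limma 3.58.1 (R 4.3.3; lmFit, then eBayes), with Benjamini-Hochberg adjustment at 0.05; the fit was tested on simulated data. All Hox genes with any array well above background were named with values. Of the other lists, the TALE and Hoxc13 lists were to be named in full and otherwise up to 4 genes by p. Some were named after their values were seen (Ezh2, Corin, Hhip, Prom1, Lepr, Sox2, Alpl, Vcan, Hoxa11os, Hoxd3os1, Evx1, Evx2, Alx1, Barx1 and Lhx8). Counts cover whole lists, and some genes that the rule would name are not reported here by name. The members and lists were chosen with earlier results of these data known. Bounds on folds raised a dim group's values to each array's dimmest value still marked well above background.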

Additional observations from a re-analysis of the deposited data

Results flagged for a closer look

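In 8 of 52 groups of 4 arrays 1 sample lay apart from the other 3 by more than Dixon's critical value at 95%. The 52 groups come from the 26 Hox genes well above background on at least 1 array. Chance marks about 1 in 20 groups not chosen by their values, a rate that does not apply here: a gene that entered through 1 bright array, such as Hoxb13, Hoxc8 or Hoxd12, had that array apart by the choice. Hoxb8 was at -4.92 on vehicle replicate 4, with the others from -8.06 to -7.72, and at -5.15 on E7386 replicate 4, with the others from -7.53 to -7.47. Hoxb13 was at -4.60 on E7386 replicate 2, with the others from -7.32 to -7.28. On vehicle replicate 1, Hoxc8 was at -4.96 (others -7.63 to -7.40), Hoxd12 at -5.19 (others -8.04 to -7.71) and Hoxd8 at -2.26 (others -1.45 to -1.31). Hoxc9 was at -7.81 on vehicle replicate 3, where it was not well above background, with the others from -5.38 to -4.90. Hoxd3 was at -6.05 on E7386 replicate 4, also not well above background there, with the others from -4.75 to -4.59. Vehicle replicate 1 also had the lowest skeletal muscle mean (1.36) and the most Hox genes well above background (21); their part in these values was not tested.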

How the results depend on the processing

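No Hox gene was called under any alternative run. Of the 16 Hox genes past the filter, each of the 21 alternative fits tested between 11 and 16. The lowest limma adjusted p among these was between 0.158 and 0.436. With no detection filter all 39 were tested, and the lowest was taken over the 16 only. The median change of the Hox genes ran from -0.105 to 0.059. The count of genes called over the array, 287, became 155 with no detection filter, 657 at an adjusted p under 0.1, 560 with the muscle mean as a covariate and 88 without the 3 arrays lowest in muscle, both of these alternatives chosen after seeing the data. Leaving out 1 array gave 86 to 256. The cause of these differing counts was not tested, and the fits that left out arrays also had fewer samples. Of the 39 Hox genes, 27 were detected when a signal only had to be positive and significant and 26 when 1 array sufficed, against 16; leaving out 1 array gave 15 to 16. Without a change of call, the changes of Hoxa6 (-0.03) and Hoxd3 (-0.01) moved with normexp, Hoxb3 (-0.28) with its probes averaged, and Hoxa9 (0.34) without the 3 arrays lowest in muscle. Normexp used median signals, chosen after seeing the data, and was not run on mean signals.

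Same-numbered arrays had deviations from their group means that correlated with r of 0.53, -0.21, 0.34 and 0.19 across 23295 genes, and over the 16 Hox genes tested with r of 0.61, -0.11, 0.57 and 0.52. The highest r with another number was 0.27, 0.31, 0.45 and 0.45, so over all genes only pair 1 correlated best with its own number. As pair 2 was below 0.1 and the labels name no shared source, the samples were treated as unpaired, which leaves a partial pairing possible. With the replicate block, 48 genes and 0 Hox genes were called. Dim probes limit the comparison: 5 of the 16 Hox genes tested were below the background mark on some array.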
